A study of Homo sapiens with 3 samples.

Results

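Membrane-anchored serine proteases cut other proteins at the cell surface, and membrane-bound Kunitz inhibitors hold them in check. The set described here holds 8 protease genes (TMPRSS2, TMPRSS3, TMPRSS4, TMPRSS6, ST14, HPN, PRSS8 and CORIN) and 2 inhibitor genes (SPINT1 and SPINT2). They were chosen by symbol, and all 10 were found among the 58302 genes of the count files. They were measured in 3 libraries of C4-2, a human prostate adenocarcinoma line derived from LNCaP and labelled wild type. No treatment is labelled for these cells, and total RNA was sequenced after depletion of ribosomal RNA. The series also concerns neuroendocrine lines and knockdown of neuropilin-2. Those samples were not analysed here, so the results are levels within C4-2 and the spread between its 3 libraries, with no comparison of conditions. The labels do not say that the replicates are separate cultures, so p-values here cover only differences among these sequenced samples and may reflect technical spread.

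These proteases are made as inactive zymogens and become active when the chain is cut ahead of the catalytic domain. All of them except prostasin, the PRSS8 product, are type II transmembrane proteins with the catalytic domain outside the cell, while prostasin is held by a lipid anchor. In epithelia, matriptase (the ST14 product) and prostasin act in a shared cascade that the SPINT1 and SPINT2 products restrain. TMPRSS2 is known in prostate as an androgen-responsive gene and as the usual upstream partner of ETS gene fusions, and HPN, which encodes hepsin, is often raised in prostate tumours.

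The catalytic serine was located by translating the canonical GENCODE 44 transcript of each gene and searching for a fixed motif. The motif was glycine, aspartate or asparagine, serine, glycine and glycine. The coding sequence around the serine is shown because it is what defines the protease genes as a family. Each line gives 27 bases of the GRCh38 reference transcript, 5′ to 3′, with the codon of the catalytic serine in capitals.
ST14: tgccagggtgatTCCgggggacccctg
TMPRSS2: tgccagggtgacAGTggagggcctctg
HPN: tgccagggcgacAGCggtggtcccttt
PRSS8: tgccagggtgacTCTgggggcccactc
CORIN: tgcatgggtgacAGCggtgggcctctt
TMPRSS6: tgtcagggtgacTCAggtggtccgctg
TMPRSS4: tgccagggtgacAGTggtgggcccctg
TMPRSS3: tgccagggggacAGCggggggcccctg

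In all 8 genes an exon junction follows the first 6 of these bases, so the serine codon lies in the downstream exon with the other 21. For ST14 those 21 bases are chr11:130209662-130209682 (plus strand, exon 19 of 19), and for TMPRSS2 they are chr21:41467866-41467886 (minus strand, exon 13 of 14). For HPN they are chr19:35065868-35065888 (plus strand, exon 12 of 13), and for PRSS8 they are chr16:31132315-31132335 (minus strand, exon 6 of 6). The codon was AGC or AGT in 5 genes (TMPRSS2, TMPRSS3, TMPRSS4, HPN and CORIN) and of the form TCN in the other 3 (ST14, TMPRSS6 and PRSS8). Serine codons of these 2 kinds are not a single base change apart. Of the 27 bases, 14 were the same in all 8 genes, and over the 28 pairs of genes between 18 and 25 bases matched, most for TMPRSS2 and TMPRSS4. Part of this match was set by the search, since every site had to carry the motif. The codon kind did not follow the level of the gene: the abundant genes below include both kinds, and so do the scarce ones.

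The Kunitz signature, a stretch with conserved cysteines, was found 2 times in each inhibitor and in none of the proteases. The 4 copies are shown because they are the units by which the inhibitors are recognised, and the capitals mark the codon of the first conserved cysteine in the stretch.
SPINT1 first: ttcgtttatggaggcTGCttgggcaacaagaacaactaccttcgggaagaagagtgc
SPINT1 second: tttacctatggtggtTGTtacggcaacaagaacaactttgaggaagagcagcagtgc
SPINT2 first: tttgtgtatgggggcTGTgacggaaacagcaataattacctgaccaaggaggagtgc
SPINT2 second: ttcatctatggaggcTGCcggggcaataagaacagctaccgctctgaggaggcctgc

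Each copy of 57 bases lies within a single coding exon. In SPINT1 these are chr15:40853800-40853856 (exon 5 of 11) and chr15:40855981-40856037 (exon 9 of 11), both on the plus strand. In SPINT2 they are chr19:38283716-38283772 (exon 2 of 7) and chr19:38290208-38290264 (exon 5 of 7), also on the plus strand.

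The libraries held 47513470 to 51200272 reads assigned to genes. All 8 luminal prostate markers were detected, at a summed level of 3697 to 3729 TPM. TPM is a read count divided by exon length, then scaled by the library's total of such length-divided counts. Detected genes are those with 10 reads or more in each of the 3 libraries. Of 4 basal markers 2 were detected (summed level 1.01 to 1.31 TPM), with TP63 and KRT5 at 0 reads. All 5 neuroendocrine markers were detected, at a summed 5.28 to 6.79 TPM. Of 6 blood, vessel and fibroblast markers 1 was detected (1.27 to 2.09 TPM summed), and COL1A2 was at 0 reads. Whether these low signals bear on the genes below was not tested.

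The 10 genes fell into 2 tiers. ST14, TMPRSS2, SPINT1, SPINT2, HPN and PRSS8 lay between 37.5 and 288 TPM, whereas the means of CORIN, TMPRSS6, TMPRSS4 and TMPRSS3 were 0.340 TPM or less. In all, 9 of 10 were detected, against 71.8% of 19708 protein-coding genes, and 6 of 10 reached 1 TPM, against 62.7%, so neither count stands far from the background. Their median level was 55.4 TPM, beside 5.43 TPM for protein-coding genes. Mean TPM of PRSS8 was 110 times that of CORIN, the next gene down, and 50.4% of protein-coding genes lay between them.

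**Figure D1:**
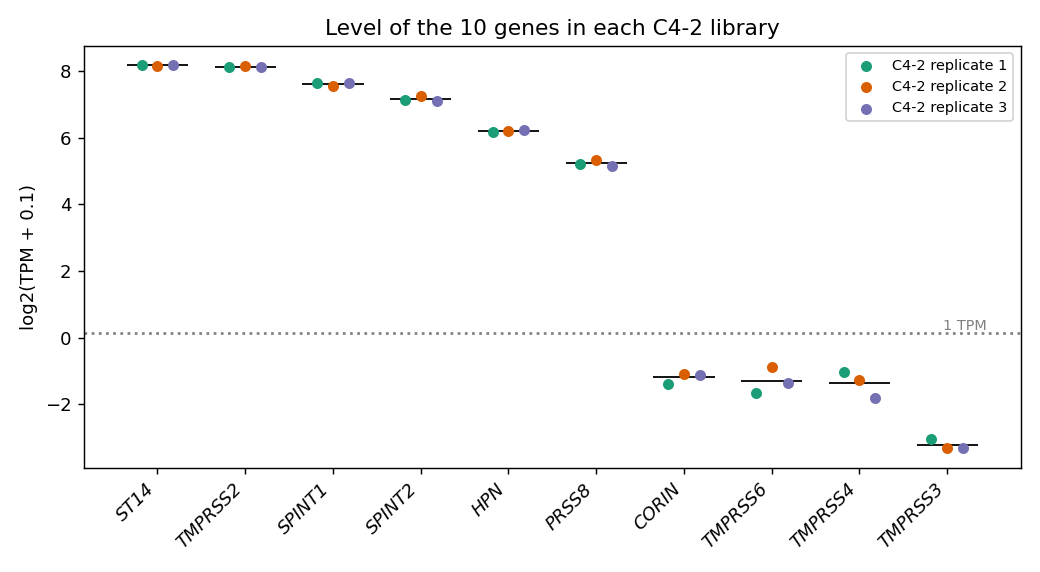
Level of each gene as log2(TPM + 0.1) in the 3 C4-2 libraries (points), with the mean as a line and 1 TPM dotted. ST14 to PRSS8 sit far above the dotted line in every library, and CORIN, TMPRSS6, TMPRSS4 and TMPRSS3 below it in every library.

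ST14 encodes matriptase, a protease that activates growth factor precursors and protease-activated receptors on epithelial cells. It had 21034, 19082 and 21086 reads in replicates 1, 2 and 3, or 288, 285 and 290 TPM (mean 288 ± 2.75, SD, n = 3). The gene (ENSG00000149418) is annotated at chr11:130159562-130210376 on the plus strand of GRCh38. It ranked at percentile 98.1 of the protein-coding genes.

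TMPRSS2 had the most reads of the set, 28356, 26520 and 28511, over a longer exon length (6117 bases against 4350 for ST14). Its level was 276, 282 and 279 TPM (279 ± 2.71, n = 3), also at percentile 98.1. ST14 was above TMPRSS2 in 3 of 3 libraries, by only 0.04 ± 0.0242 log2 units, which is less than 2 SD of the difference. These 2 neighbours in the order were therefore not set apart by this measure. The ETS gene ERG, on the same chromosome and the commonest fusion partner of TMPRSS2, was listed with 0 reads throughout. That allows 0.0257 TPM at most (3 reads), or 0.0513 TPM with both mates counted.

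HPN encodes hepsin, which can activate the precursor of hepatocyte growth factor. Its level was 71.4, 73.3 and 75.2 TPM (73.3 ± 1.87, n = 3), from 4053, 3818 and 4242 reads. TMPRSS2 exceeded HPN by 1.93 ± 0.0308 log2 units, a 3.8-fold difference in the same direction in 3 of 3 libraries (exact two-sided sign-flip test, p = 0.25, the smallest p that 3 libraries allow). The exons of HPN share 10.3% of their bases with the antisense gene HPN-AS1, which itself held 27, 15 and 33 reads. Counting ignored strand and dropped reads that overlapped both genes, so the HPN level is uncertain to that extent.

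PRSS8, the prostasin gene, was the lowest of the abundant tier at 36.6, 40.1 and 35.8 TPM (37.5 ± 2.27, n = 3), from 1851, 1858 and 1799 reads. It shares 11.9% of its exon bases with an antisense non-coding gene that had 0 assigned reads. ST14, whose product works with prostasin, exceeded PRSS8 by 2.97, 2.83 and 3.02 log2 units in the 3 libraries. That is a mean of 2.94 ± 0.0995, or 7.66-fold (3 of 3 libraries, exact sign-flip p = 0.25).

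SPINT1 encodes the first hepatocyte growth factor activator inhibitor, a cognate inhibitor of matriptase. It was at 200, 189 and 198 TPM (mean 196 ± 5.70, n = 3), from 11888, 10325 and 11719 reads. SPINT2, which encodes the second such inhibitor, was at 141, 153 and 138 TPM (144 ± 8.34, n = 3), from 12318, 12285 and 11938 reads. Replicate 2 held the lowest SPINT1 and the highest SPINT2 value, yet the levels of the 2 genes did not overlap. On this scale SPINT2 was below SPINT1 by 0.50, 0.30 and 0.53 log2 units, a mean difference of -0.44 ± 0.123 for SPINT2 minus SPINT1 (3 of 3 libraries, exact sign-flip p = 0.25). The direction depends on the gene length used, as described next.

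The length in the files merges every annotated exon of a gene, including exons of transcripts that may not be made in these cells. For SPINT2 it is 5199 bases, 3.08 times the 1688 bases of its canonical transcript, while for SPINT1 it is 3542 bases, 1.19 times the canonical 2978. With canonical lengths, a choice made after seeing the data, SPINT2 stood at 294 ± 16.7 TPM and SPINT1 lay at 154 ± 4.55. SPINT2 minus SPINT1 then turned to 0.93 ± 0.123 log2 units (3 of 3 libraries, exact sign-flip p = 0.25). TMPRSS2 became the highest of the set at 328 ± 3.41 TPM, followed by SPINT2 and by ST14 at 251 ± 2.78. HPN and PRSS8 were at 94.0 ± 2.58 and 40.7 ± 2.43 TPM, still the lowest of the abundant tier. Which transcripts the reads came from cannot be told from gene counts.

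**Figure D2:**
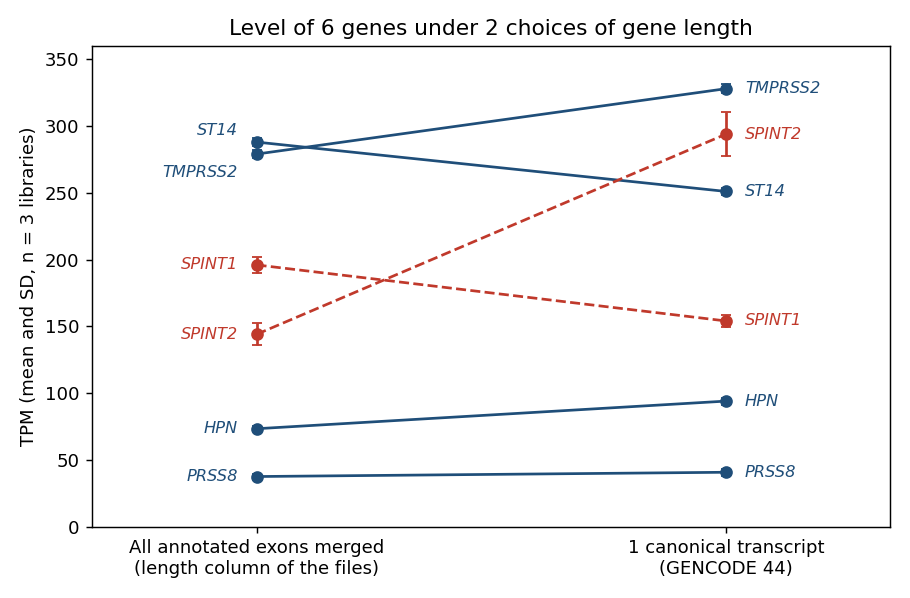
TPM (mean and SD, n = 3 libraries) of the 6 abundant genes with the exon length of the files, left, and the canonical transcript length, right; proteases are blue with solid lines, inhibitors red with dashed lines. SPINT2 moves from 144 to 294 TPM and crosses SPINT1, and TMPRSS2 crosses ST14.

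The 2 inhibitors together made 341, 343 and 336 TPM in replicates 1, 2 and 3, and the 8 proteases 673, 681 and 681 TPM. Summed inhibitor transcripts were thus below summed protease transcripts in every library, at 0.501 times their level. The SD of the log2 ratio was 0.0210 (n = 3, exact sign-flip p = 0.25). With canonical lengths the sums were 448 ± 12.4 and 714 ± 6.57 TPM, and the log2 difference of inhibitors minus proteases was -0.67 ± 0.0405, in the same direction in 3 of 3 libraries. These are transcript levels and say nothing of protein amounts. The sums also depend on which genes the set holds, here 2 inhibitors and 8 proteases. Other inhibitor genes such as APP (259 ± 2.77 TPM) and APLP2 (196 ± 3.44 TPM) were not counted. Neither were other membrane-linked proteases, such as PRSS27 (8.90 ± 0.378 TPM).

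The scarce tier held 4 proteases known mainly from other tissues. CORIN encodes the protease that activates the atrial natriuretic peptide precursor in heart. It had 48, 58 and 61 reads over 10087 bases of exon, or 0.283, 0.373 and 0.362 TPM (0.340 ± 0.0490, n = 3). TMPRSS6 encodes matriptase-2, a liver protease that lowers hepcidin production. Its 15, 28 and 20 reads gave 0.219, 0.445 and 0.293 TPM (0.319 ± 0.115). TMPRSS4, which has been described in several carcinomas, had 66, 48 and 31 reads, or 0.395, 0.313 and 0.187 TPM (0.298 ± 0.105).

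The ranges of these 3 genes overlapped. CORIN minus TMPRSS6 was 0.10 ± 0.262 log2 units (2 of 3 libraries) and TMPRSS6 minus TMPRSS4 was 0.07 ± 0.615 (2 of 3 libraries), so their order is not resolved at this depth. All 3 lay between the 29th and 29.8th percentiles of protein-coding genes. TMPRSS3, a gene known from inherited hearing loss, had 2 reads in replicate 1 and 0 in the others. A count of 0 allows up to 3 reads, or 0.0344 TPM for this gene, and 0.0688 TPM with both mates counted. TMPRSS3 lies 841 kb from TMPRSS2 on chromosome 21, with 9 protein-coding genes between them, so the highest tier and the lowest value of the set sit within 1 Mb.

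**Figure D3:**
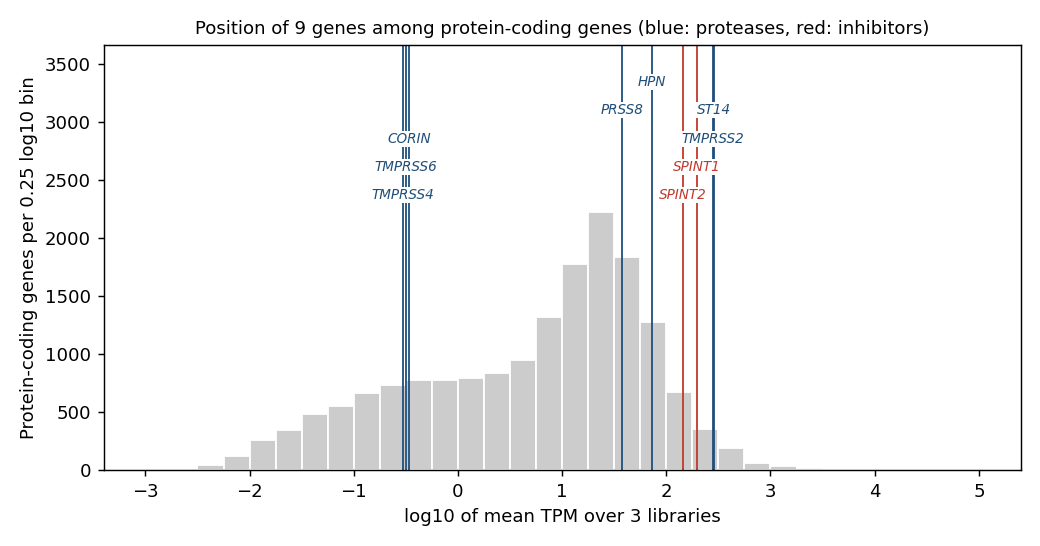
Number of protein-coding genes in bins of 0.25 on the log10 scale of mean TPM (grey), with vertical lines at proteases (blue) and inhibitors (red); genes at 0 TPM and TMPRSS3, at 0.00702 TPM, are not drawn. ST14, TMPRSS2, SPINT1 and SPINT2 stand in the right tail, and CORIN, TMPRSS6 and TMPRSS4 in the left shoulder.

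Of the 9 pairs of neighbours in the order of level, 3 were within their spread: ST14 and TMPRSS2, CORIN and TMPRSS6, and TMPRSS6 and TMPRSS4. The order was taken from the mean TPM of these same libraries, so the direction of each mean difference was fixed in advance. With canonical lengths the order, and so the pairs, differed. TMPRSS2 exceeded SPINT1 by 0.51 ± 0.0553 log2 units, SPINT2 exceeded HPN by 0.97 ± 0.0969, and HPN exceeded PRSS8 by 0.97 ± 0.0991, each in 3 of 3 libraries. Exact sign-flip p was 0.25 for each of these and 0.321 after Benjamini-Hochberg adjustment over the 9 pairs, which no design of 3 libraries can bring below 0.25.

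The abundant genes differed little between libraries. With TMM library sizes (a trimmed-mean scaling of totals), most of them still differed by more than counting noise. On that scale replicate 2 stood at 96.5% of the mean for ST14, 94.3% for SPINT1 and 104% for SPINT2. Replicate 3 stood at 102.7% for TMPRSS2 and 105% for HPN. The coefficient of variation was 2.32% to 5.06% over the 6 abundant genes, against 14.4% for CORIN, 34.2% for TMPRSS6 and 34.3% for TMPRSS4. The replicate that is highest can depend on the scaling: TMPRSS2 was highest in replicate 2 in TPM and in replicate 3 with TMM sizes. The amount of spread depends on it too. Relative to their means, ST14 (288 ± 2.75 TPM), TMPRSS2 (279 ± 2.71), SPINT1 and HPN spread less in TPM than with TMM sizes. SPINT2 (144 ± 8.34 TPM) and PRSS8 (37.5 ± 2.27) spread more. Variation in TPM was not tested.

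The 3 counts of each gene were compared with the TMM library sizes by chi-square. Of the 9 detected genes 6 varied (Benjamini-Hochberg adjusted p under 0.05), against 46.1% of all 21039 detected genes. Adjusted p was 1.63e-11 for SPINT1, 7.48e-10 for ST14, 3.72e-06 for TMPRSS2, 5.9e-06 for SPINT2, 0.00149 for HPN and 0.0102 for TMPRSS4. It was 0.133 for PRSS8, 0.141 for TMPRSS6 and 0.397 for CORIN. In each library 78.7% to 84.5% of genes with 2 to 20 reads had an even count, as arises when both mates of a fragment are counted. With the statistic divided by 2 to allow for this, 4 of 9 varied, against 17.6% of all detected genes: SPINT1, ST14, TMPRSS2 and SPINT2, the 4 genes with the most reads (10325 to 28511 per library). HPN (adjusted p = 0.0826) and TMPRSS4 (adjusted p = 0.178) no longer passed.

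The settings below used the statistic without division by 2. ST14 passed with any of the 3 libraries left out (adjusted p = 2.2e-10, 0.00411 and 0.00365 without replicates 1, 2 and 3). The other calls each depended on a library. Whether ST14 would pass with a library left out and the statistic divided by 2 was not tested. Without replicate 3, 3 of the 9 genes passed (ST14, SPINT1 and SPINT2), against 23.8% of all genes tested, and TMPRSS2, HPN and TMPRSS4 did not (adjusted p = 0.722, 0.958 and 0.343). Without replicate 2, 4 passed, also against 23.8%, and SPINT1 (adjusted p = 0.344) and SPINT2 (adjusted p = 0.981) did not. Without replicate 1, 5 passed, against 32.7%, and TMPRSS4 did not (adjusted p = 0.102). With the edgeR common dispersion added to the counting noise, a coefficient of variation of 7.38% between libraries, 0 of 9 passed the adjusted threshold, against 4.23% of all detected genes. In that setting TMPRSS4 alone of the 9 had an unadjusted p under 0.05 (chi-square form of the test with edgeR dispersion, unadjusted p = 0.0109). Its adjusted p in the same test was 0.132. The share of all detected genes under that unadjusted threshold was not taken, so this count has no background to stand beside.

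**Figure D4:**
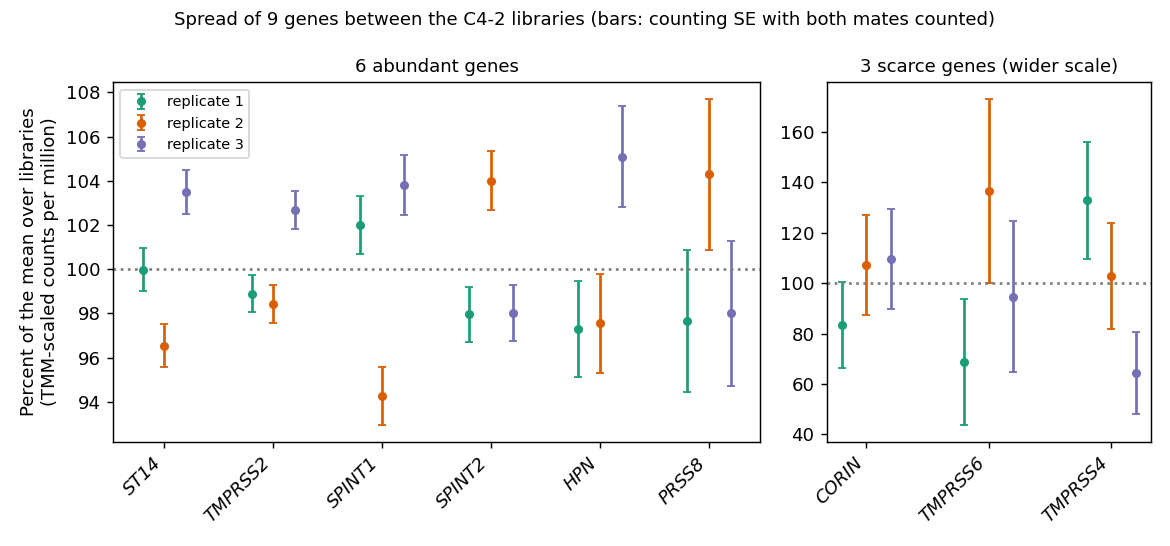
TMM-scaled counts (CPM) in each library as a percent of the mean over libraries, for 6 abundant genes (left) and 3 scarce genes (right, wider scale); bars are the counting standard error with both mates counted. SPINT1 is lowest and SPINT2 highest in replicate 2, at 94.3% and 104% of their means, and the bars of the scarce genes are many times wider.

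The other genes of the type II transmembrane family were lower than the abundant tier. Of the 10 outside the set, 4 were detected, and all 4 reached 1 TPM, beside 71.8% and 62.7% of protein-coding genes. TMPRSS9, a protease with several catalytic domains, was highest at 4.48 ± 0.909 TPM, then TMPRSS5 at 2.98 ± 0.187, TMPRSS13 at 2.44 ± 0.499 and TMPRSS11E at 2.06 ± 0.158 (n = 3). TMPRSS7, TMPRSS11A, TMPRSS11B and TMPRSS11F had 0 reads in every library, and TMPRSS15, the enteropeptidase gene, and TMPRSS11D were not detected. Over the 17 family members, counting those of the set, ST14, TMPRSS2 and HPN made up 98.0 ± 0.205% of the family's summed TPM.

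TMPRSS9 and TMPRSS13 varied between libraries, 2 of the 4 detected, beside 46.1% of all detected genes. TMPRSS9 had 244, 306 and 366 reads in replicates 1, 2 and 3 (chi-square test, adjusted p = 6.53e-06, and 0.00812 with the statistic divided by 2). TMPRSS13 had 170, 213 and 256 reads (adjusted p = 0.000252 and 0.0395). Both were lowest in replicate 1 and highest in replicate 3. TMPRSS4 lies 148 kb from TMPRSS13 on chromosome 11, with 1 protein-coding gene between them. It was highest in replicate 1 and lowest in replicate 3, but on only 66, 48 and 31 reads. With the statistic divided by 2, TMPRSS4 did not pass (chi-square test, adjusted p = 0.178). Whether these opposite directions are related was not tested.

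Of 6 other membrane-linked serine proteases 1 was detected and 1 reached 1 TPM, beside 71.8% and 62.7% of protein-coding genes. That gene was PRSS27, at 8.90 ± 0.378 TPM, and it stood at 30.7 TPM with its canonical length. PRSS21, the testisin gene, and TPSG1, a tryptase gene, lay at 0.228 and 0.0977 TPM, and PRSS41 had 0 reads.

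Other serine protease inhibitors added to SPINT1 and SPINT2 in the abundant range. Of 16 such genes 7 were detected and 5 reached 1 TPM, beside the same 71.8% and 62.7%. APP and APLP2, whose products carry a Kunitz domain in some isoforms, were at 259 ± 2.77 and 196 ± 3.44 TPM, and the intracellular serpin gene SERPINB6 was at 84.2 ± 3.79. APP, SERPINB6 and SPINK5 varied between libraries (3 of 7 detected, beside 46.1%; chi-square test, adjusted p = 1.07e-07, 0.00429 and 0.00804), of which APP alone still passed with the statistic divided by 2 (adjusted p = 0.00131). The gene count cannot say which APP isoform was made. The plasma serpin genes SERPINA1 and SERPINC1 were not detected, SERPINA1 with 4, 2 and 0 reads and SERPINC1 with 2, 5 and 0, and SPINT4, a Kunitz-type gene, had 0 reads.

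Of 18 genes for substrates of these proteases and their receptors, 12 were detected, beside 71.8% of protein-coding genes, and 8 reached 1 TPM, beside 62.7%. Neither count is set apart from the background by these data. EPCAM, an epithelial adhesion molecule that matriptase can cut, was at 81.2 ± 2.61 TPM, the transmembrane glycoprotein gene CDCP1 at 73.7 ± 2.16 and SCNN1A, the alpha subunit of the epithelial sodium channel, at 50.0 ± 1.49 (n = 3). These 3 of the 12 detected genes varied between libraries, beside 46.1% of all detected genes (adjusted p = 0.0167, 2.55e-09 and 2.2e-05), and EPCAM did not pass with the statistic divided by 2 (adjusted p = 0.216; 17.6% of all detected genes then passed).

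Other genes of the list spanned a wide range of levels. The other 2 sodium channel subunits, SCNN1B and SCNN1G, were at 0.240 ± 0.0607 and 0.539 ± 0.112 TPM. MET, the receptor for hepatocyte growth factor, was at 1.62 ± 0.151 TPM, whereas its ligand gene HGF had 0, 0 and 4 reads and PLAU, the urokinase gene, 2, 1 and 1. F2RL1, a protease-activated receptor gene, was at 41.4 ± 1.23 TPM, MST1, which encodes macrophage-stimulating protein, at 6.81 ± 0.547, and the urokinase receptor gene PLAUR at 1.32 ± 0.217. NPPA, the atrial natriuretic peptide gene cut by corin, had 5, 0 and 13 reads, and HJV, the hemojuvelin gene cut by matriptase-2, had 1, 0 and 0. HGF, PLAU, PLAUR, MST1, F2RL1, MET, SCNN1B, SCNN1G, NPPA, HJV, SERPINA1, SERPINC1, TMPRSS11D, TMPRSS11E and TMPRSS15 were singled out after their values were seen.

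A list of fusion partners and androgen-responsive genes gave context for TMPRSS2. KLK3, an androgen-responsive kallikrein gene, was at 1440 ± 26.3 TPM and the ETS gene ETV4 at 1.07 ± 0.288 (n = 3). Of the 6 genes in this list 4 were detected, beside 71.8% of protein-coding genes. All 4 varied between libraries, beside 46.1% of all detected genes, KLK3 and ETV4 among them (chi-square test, adjusted p = 7.76e-79 and 0.0266). With the statistic divided by 2, KLK3 passed (adjusted p = 1.97e-38) and ETV4 did not (adjusted p = 0.259), where 17.6% of all detected genes passed.

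**Figure D5:**
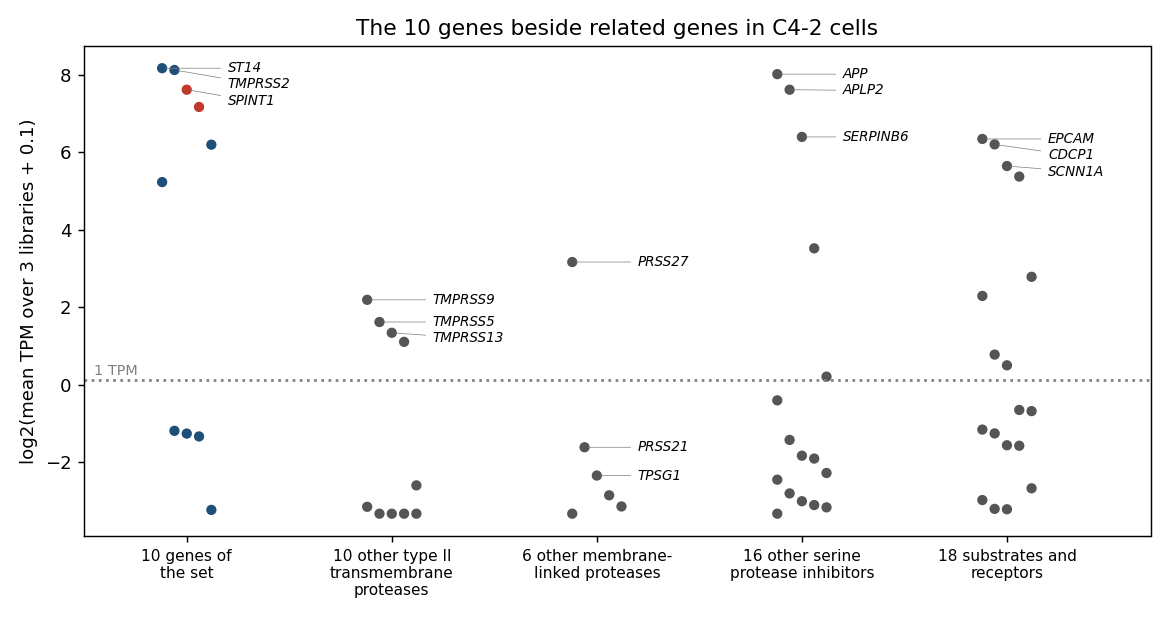
Mean level over 3 libraries, as log2(TPM + 0.1), of every gene in the set (proteases blue, inhibitors red) and in 4 related lists (grey), with the 3 highest of each named and 1 TPM dotted. The other type II proteases stay at or below 4.48 TPM, while APP and APLP2 reach the range of ST14 and SPINT1.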

How the data were processed

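RNA from 3 C4-2 libraries (770 ng input) was sequenced. The deposited values are raw read counts per gene; per the file headers they came from featureCounts 1.6.3 with the Ensembl 90 annotation of GRCh38, with no option for strand or pairs. The submitters' processing notes also name STAR 2.7.0f, Trim Galore and DESeq2 1.26.0. With such options, reads overlapping several genes are dropped and mates are counted singly. Symbols came from GENCODE 44 by Ensembl identifier (57532 of 58302 matched). TPM used the length column, which equals the merged exons in 58302 of 58302 genes, and log2 values used TPM + 0.1. TMM sizes and the dispersion came from edgeR 4.0.16 (R 4.3.3), alternative size factors from DESeq2 1.42.0. The chi-square test was adjusted over all detected genes. In simulated counts with both mates counted and no other spread between libraries, it called 6.26% to 6.44% of unchanged genes. With the statistic divided by 2 it called 0.0144% to 0.0384%. Differences within libraries used sign-flip tests. No pattern across conditions exists, so no gene was named for likeness to another. Named genes were the 10 members and, of each related list (not the cell type markers), the 3 highest by mean TPM, those with an adjusted p under 0.05 and, where absence is reported, those with 0 reads; some genes of these lists are not reported here. The members and lists were chosen with earlier results of these data known. Floors cover counting error only. Python 3.11.15, numpy 2.4.6, pandas 2.3.3, scipy 1.17.1 and matplotlib 3.10.9 did the rest.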

Additional observations from a re-analysis of the deposited data

How the results depend on the processing

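No comparison of conditions, paired or not, was possible because the 3 libraries form a single group. Differences between genes were taken within each library. With exon bases shared with no other gene as the length, inhibitors minus proteases was -0.97, ST14 minus PRSS8 was 2.76 and TMPRSS2 minus HPN was 1.77 log2 units. With the exon length less 200 bases TMPRSS2 minus HPN was 1.89. With canonical transcript lengths, chosen after seeing the data, inhibitors minus proteases was -0.67, ST14 minus PRSS8 was 2.62, TMPRSS2 minus HPN was 1.80 and SPINT2 minus SPINT1 reversed to 0.93; the length change itself sets these values. With the statistic not divided, the count of genes varying between libraries ranged from 3 to 5 with a library left out. Fewer samples enter there, and the share over all genes tested also fell, from 46.1% to between 23.8% and 32.7%. The count was 0 with the edgeR common dispersion added, where 1 gene had an unadjusted chi-square p under 0.05. The share of all detected genes at that unadjusted level was not taken. The number of genes detected stayed at 9 with a threshold of 1 read and with any library left out. It was 6 where detection meant a mean of at least 1 TPM. The number at 1 TPM or more stayed at 6 under every alternative run. Of 72 alternative variation tests of single genes, 57 kept their side of the threshold, 14 lost the call and 1 gained it. Counts of under 70 reads limit CORIN, TMPRSS6 and TMPRSS4.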

Other observations

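ST14 and APLP2, a gene for another membrane protein with a Kunitz domain in some isoforms, are neighbours on chromosome 11. Their annotated ends lie 14.8 kb apart with 0 protein-coding genes between them, and both were abundant, at 288 and 196 TPM. HPN and SPINT2 share chromosome 19 but lie 3.18 Mb apart, with 91 protein-coding genes between them.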
